A study of Rattus norvegicus with 12 samples.

Results

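Genes of fatty acid oxidation and of the peroxisome, 37 in all, were followed in liver RNA of rats on 12 expression arrays. The members were given by gene name. Of these, 36 had a probe set that the array annotation gives to that gene alone, out of 14217 genes measured in this way. The remaining member, Acaa1a, a peroxisomal thiolase, shares its probe set with Acaa1b, and no level is given for it. By role, 19 members belong to mitochondrial oxidation, 10 to the peroxisome (9 measured), 2 to ketone body metabolism, and 6 to fatty acid uptake and regulation.

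Long Evans Cinnamon (LEC/Crj) rats lack a working Atp7b copper pump, so that copper builds up in the liver, hepatitis follows, and liver tumors appear in older animals. The groups were tumor tissue of LEC liver at 67 weeks (4 arrays), adjacent nontumor tissue of LEC liver at 67 weeks (4 arrays), LEC liver at 4, 26 and 39 weeks (1 array each), and liver of Long Evans Agouti (LEA) rats, the control strain, at 67 weeks (1 array). All animals are labelled as male and were kept free of specific pathogens, and every LEC group carries the strain's copper defect. Each tumor or nontumor array held pooled RNA of 2 specimens from a set of 8 tumor and nontumor pairs, and the other arrays were pools as well, so no array shows a single rat. The labels do not say what type of tumor was sampled or whether a rat entered more than 1 pool, and the p-values therefore measure only the spread between these pools.

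Mitochondria take up long-chain fatty acids as carnitine esters and shorten them by repeated cycles of dehydrogenation, hydration, dehydrogenation and thiolysis, with electrons passed on by electron-transferring flavoproteins. Peroxisomes shorten very long and branched chains and the side chain of bile acid precursors. In fasting liver the acetyl-CoA that results is turned into ketone bodies, and the fatty acid receptor PPARα, encoded by Ppara, induces many genes of all these steps.

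Promoter sequence was available for 34 of the 37 members in the RefSeq set on build GRCr8, each running from 250 bases before the gene's start through the first 50 bases of the gene. Acaa2, Acadl and Decr1 had none there. PPARα binds, in a pair with the retinoid receptor RXR, to 2 copies of AGGTCA with a single base between them. That exact motif, AGGTCANAGGTCA, was in 0 of the 34 member promoters on either strand, against 0.0538% of all 33469 promoters. With the fourth base of each copy left free, AGGNCANAGGNCA was in 1 of the 34, that of Fabp1, against 0.415% of all promoters. Fabp1 encodes the liver fatty acid binding protein, and this match is printed here because Fabp1 had among the largest falls in tumors. The sequence is the 250 bases before the start of the gene on the plus strand of chr4:104749090-104749339, and the capitals mark the match, which reads on the minus strand between bases -77 and -65 from the start.

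Fabp1: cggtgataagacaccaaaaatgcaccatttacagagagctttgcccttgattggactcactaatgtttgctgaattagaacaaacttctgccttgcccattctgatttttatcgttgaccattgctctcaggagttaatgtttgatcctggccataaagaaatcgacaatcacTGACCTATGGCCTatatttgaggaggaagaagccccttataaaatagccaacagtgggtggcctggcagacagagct

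The GC-box letters GGGCGG were in 24 of 34 member promoters (70.6%), against 33.1% of all promoters and 55.7% of the promoters of measured genes. CCAAT was in 15 of 34 (44.1%), against 37.5% of all promoters and 36.8% of those of measured genes. TATAAA was in 4 of 34 (Cd36, Echs1, Fabp1 and Fgf21), or 11.8%, which lay below the 14.2% of all promoters and above the 8.46% of those of measured genes. Both strands were searched in each case, and a match is a description of letters. Hadha and Hadhb, the α and β subunits of the mitochondrial trifunctional protein that performs the last steps of each cycle on long chains, lie head to head on chromosome 6 with 300 bases between their starts. The 250 bases before Hadha, on the plus strand of chr6:31907551-31907800, are shown because both genes share them, and the capitals mark the GC-box letters as they read on the plus strand.

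Hadha: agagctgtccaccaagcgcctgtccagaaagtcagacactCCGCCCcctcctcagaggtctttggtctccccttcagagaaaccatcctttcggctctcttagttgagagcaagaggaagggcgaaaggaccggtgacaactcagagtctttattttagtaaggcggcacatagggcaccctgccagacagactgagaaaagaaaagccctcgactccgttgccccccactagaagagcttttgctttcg

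Levels are log2 expression values of 1 probe set per gene, so a difference of 1 is a 2-fold difference, and levels of different genes were not compared with each other. Array medians lay between 7.39 and 7.51. The highest of 27 probe sets for bacterial RNA, which should be absent from liver, reached 5.52 to 5.67 on tumor arrays, 5.88 to 6.01 on nontumor arrays, 6.15, 6.22 and 6.16 at 4, 26 and 39 weeks, and 6.11 in LEA. All arrays are labelled male, but for Xist and Eif2s3y only the 26 and 39 week arrays matched that label. Xist, expressed from the inactive X chromosome of females, was 5.27 and 5.67 there and 11.36 to 13.12 on the other 10 arrays. The Y-linked Eif2s3y was 8.90 and 8.18 there and 3.65 to 3.81 elsewhere. Uty, also Y-linked, was 9.84 and 9.68 there and 9.97 to 10.70 elsewhere. The 3 comparisons that were tested used none of the levels at 26 and 39 weeks. They thus lie within the 10 arrays whose Xist and Eif2s3y levels go against the label, and the reason was not tested. These 10 arrays were not alike for 2 liver genes with a male pattern. Cyp2c11 was 12.80 at 4 weeks, 8.28 in LEA and 8.24, 7.58, 10.77 and 9.99 on nontumor arrays 1 to 4. Cyp2c13 was 12.48 at 4 weeks, 8.22 in LEA and 9.96, 9.77, 12.66 and 12.77 on those nontumor arrays. Cyp2c12, with a female pattern, was 13.60 at 4 weeks, 13.92 in LEA and 13.61 to 13.90 on nontumor arrays. Hepatocyte markers (5 of 6 measured) were present on every array, which checks the labelled tissue.

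In tumors nearly the whole set stood lower than in adjacent liver. Of the 36 measured members, 32 fell, 0 rose and 4 were not called in tumor against nontumor tissue (limma, adjusted p under 0.05 over all probe sets). Of all 14217 genes, 67.9% were called, 29.2% lower and 38.8% higher. The median difference was -1.33 log2 units over the members and 0.07 over all genes, and all 36 members had a difference below 0. Tumor and nontumor arrays did not overlap, with every tumor array lower, for 31 of 36 members, against 27.7% of all genes. A lower level in a tissue sample cannot tell fewer cells of a type from less RNA per cell.

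**Figure D1:**
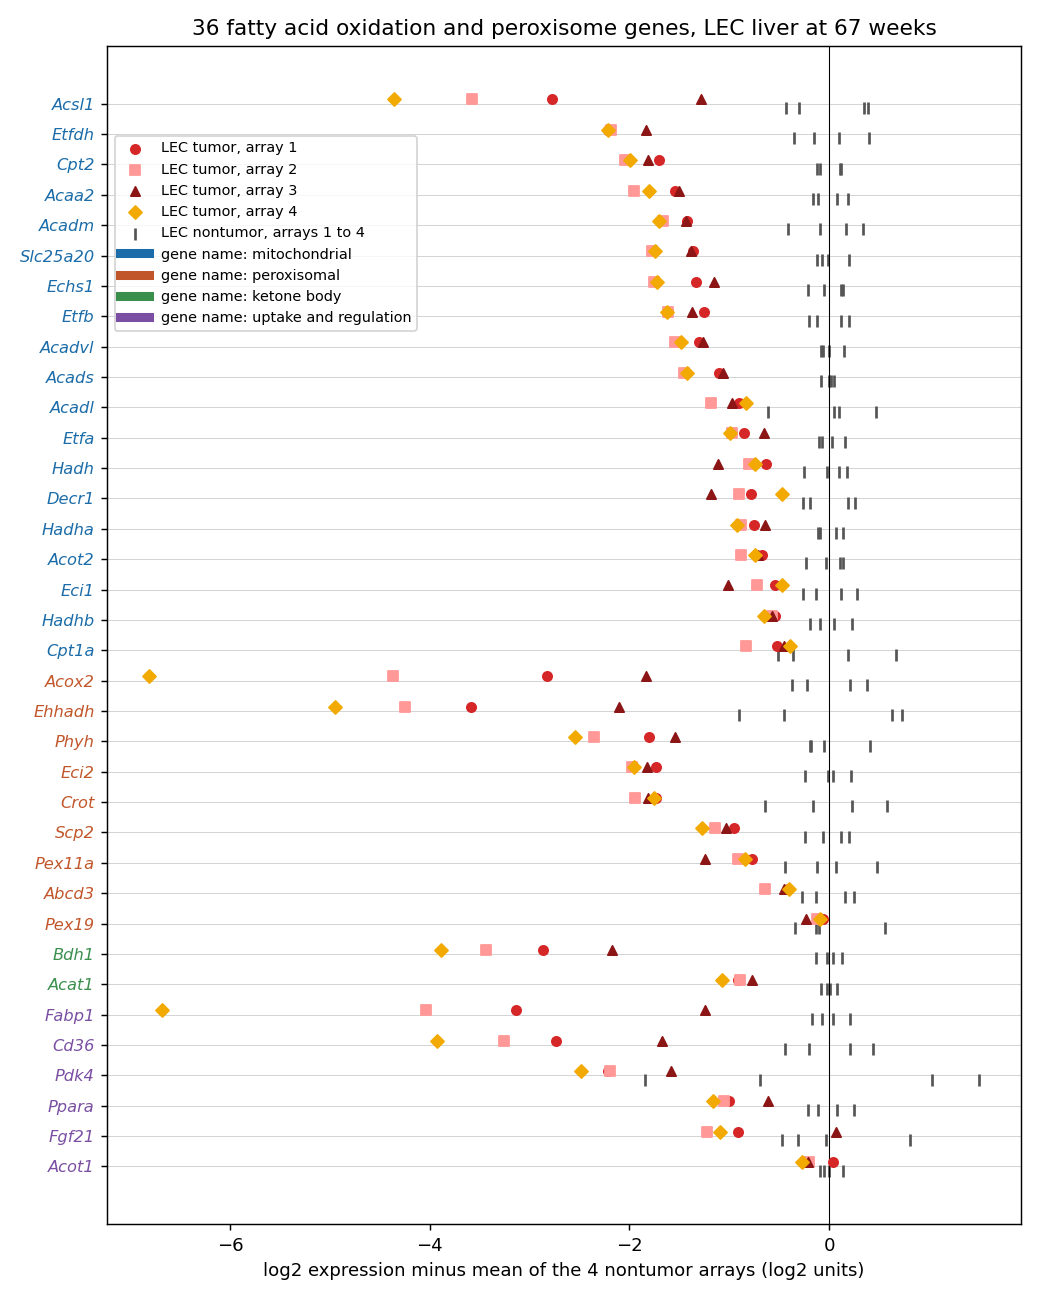
Level of each of the 36 measured members on each tumor and nontumor array, as log2 expression minus the mean of the 4 nontumor arrays (log2 units), grouped by role. Tumor symbols lie left of all nontumor ticks for 31 members, tightly for most mitochondrial genes and widely for Acox2, Fabp1, Ehhadh, Acsl1, Cd36 and Bdh1.

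Among mitochondrial members 18 of 19 fell, with a median difference of -1.27. The carnitine shuttle brings long chains into the matrix. Cpt2, the inner membrane carnitine palmitoyltransferase, averaged 9.02 ± 0.16 in tumors and 10.92 ± 0.13 in nontumor liver (SD, n = 4 each), a difference of -1.89 ± 0.10 (SE; adjusted p = 2.5e-06 by limma). Slc25a20, the carnitine-acylcarnitine carrier, averaged 8.70 ± 0.22 in tumors and 10.26 ± 0.14 in nontumor liver, a difference of -1.56 ± 0.12. Both tumor groups were compact and far below the nontumor range. Cpt1a, the outer membrane enzyme that controls entry, was the mitochondrial member without a call. Its levels were 10.28, 9.97, 10.35 and 10.41 in tumors and 11.47, 10.44, 10.29 and 10.99 in nontumor liver, which overlapped, with a difference of -0.54 ± 0.24 (adjusted p = 0.0777 by limma). A second probe set for Cpt1a was called lower in tumors (-1.08, adjusted p = 0.00429 by limma), so the 2 probe sets of this gene disagree on the call. The first was also called lower without nontumor array 3 (-0.71, adjusted p = 0.0299 by limma) and with either other scaling of the arrays (-0.77 and -0.65).

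The 4 acyl-CoA dehydrogenases, which open each cycle for chains of different length, all fell. For the medium-chain enzyme Acadm the level averaged 10.92 ± 0.15 in tumors and 12.48 ± 0.33 in nontumor liver, a difference of -1.56 ± 0.16. The very long-chain enzyme Acadvl differed by -1.40 ± 0.09, the short-chain enzyme Acads by -1.27 ± 0.11 and the long-chain enzyme Acadl by -0.97 ± 0.20. Their electrons pass through the flavoprotein subunits Etfa (-0.87 ± 0.10) and Etfb (-1.46 ± 0.12) to the ubiquinone oxidoreductase Etfdh. Etfdh was 8.57, 8.60, 8.95 and 8.57 in tumors and 10.88, 11.18, 10.63 and 10.43 in nontumor liver. It had the largest mitochondrial fall after Acsl1, at -2.11 ± 0.16 (adjusted p = 1.4e-05 by limma).

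Later steps fell as well, by amounts that differed between enzymes. Echs1, the short-chain enoyl-CoA hydratase, differed by -1.49 ± 0.15, and Acaa2, a thiolase of the matrix, by -1.70 ± 0.13. Falls were smaller for the trifunctional subunits Hadha (-0.80 ± 0.09) and Hadhb (-0.58 ± 0.10), whose shared upstream sequence is printed above. Hadhb was 10.87, 10.84, 10.84 and 10.76 in tumors and 11.46, 11.64, 11.32 and 11.22 in nontumor liver, so even the smallest called mitochondrial fall left a gap between the groups. The hydroxyacyl-CoA dehydrogenase Hadh differed by -0.83 ± 0.13. Of the enzymes that handle unsaturated chains, the isomerase Eci1 differed by -0.69 ± 0.15 and the dienoyl-CoA reductase Decr1 by -0.83 ± 0.17. The acyl-CoA thioesterase Acot2 differed by -0.75 ± 0.10.

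Acsl1, which activates long-chain fatty acids with coenzyme A before they enter any of these routes, had the largest mitochondrial fall and the widest spread. Its levels were 10.15, 9.35, 11.64 and 8.56 in tumors and 13.27, 13.31, 12.62 and 12.49 in nontumor liver. Tumor array 3 was the highest and tumor array 4 the lowest, and all 4 lay below the nontumor range. The difference was -3.00 ± 0.57, or 8-fold lower in tumors (adjusted p = 0.00188 by limma).

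Peroxisomal members fell in 8 of 9, with a median of -1.81. Acox2, the oxidase for branched chains and bile acid precursors, was 9.66, 8.12, 10.65 and 5.67 in tumors and 12.87, 12.70, 12.26 and 12.11 in nontumor liver. The tumor arrays spanned almost 5 log2 units, and array 4 lay just above the highest bacterial probe set, which was 5.59 on that array. The difference was -3.96 ± 0.91, the largest of all members (adjusted p = 0.00486 by limma). It was -3.01 without tumor array 4 and -4.67 without tumor array 3, and was called in both cases. Ehhadh, a bifunctional enzyme of peroxisomal fatty acid oxidation, was 7.03, 6.36, 8.51 and 5.66 in tumors and 11.24, 11.34, 10.16 and 9.71 in nontumor liver. Its tumor arrays stood in the same order as for Acox2, again with array 4 just above the bacterial probe sets, and the difference was -3.72 ± 0.60, or 13.2-fold lower in tumors (adjusted p = 7.7e-04 by limma).

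Other peroxisomal enzymes fell with much less spread. Phyh, which starts the breakdown of phytanic acid, was 10.28, 9.73, 10.54 and 9.54 in tumors and 12.04, 11.91, 11.90 and 12.50 in nontumor liver, a difference of -2.07 ± 0.23 (adjusted p = 9.9e-05 by limma). Eci2, an enoyl-CoA isomerase, averaged 9.83 ± 0.11 in tumors and 11.70 ± 0.19 in nontumor liver, a difference of -1.87 ± 0.11. Crot, which makes carnitine esters of medium chains for export to mitochondria, averaged 10.09 ± 0.09 in tumors and 11.90 ± 0.52 in nontumor liver, a difference of -1.81 ± 0.23. For these 3 enzymes the gap between the groups was over 1 log2 unit. Scp2, a sterol carrier and thiolase, differed by -1.10 ± 0.11.

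The members that build the organelle and its membrane had the smallest differences among the measured peroxisomal genes. Pex11a, a factor of peroxisome division, differed by -0.94 ± 0.19 and Abcd3, a membrane transporter of fatty acyl-CoA, by -0.48 ± 0.13 (adjusted p = 0.00943 by limma). Pex19, the receptor that brings membrane proteins to the peroxisome, was not called. Its levels were 8.12, 8.06, 7.95 and 8.09 in tumors and 8.05, 8.74, 8.08 and 7.84 in nontumor liver. Apart from nontumor array 2 all of them lay within 0.3 log2 units, and the difference was -0.12 ± 0.17 (adjusted p = 0.547 by limma).

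Both ketone body members fell, by unequal amounts. Bdh1, which interconverts acetoacetate and 3-hydroxybutyrate, was 8.05, 7.48, 8.74 and 7.03 in tumors and 11.04, 10.95, 10.78 and 10.89 in nontumor liver. The difference of -3.09 ± 0.31 was 8.53-fold lower in tumors (adjusted p = 5.6e-05 by limma), and its second probe set gave -3.03. Acat1, the mitochondrial acetoacetyl-CoA thiolase, was 10.43, 10.45, 10.57 and 10.26 in tumors and 11.32, 11.35, 11.26 and 11.42 in nontumor liver, a difference of -0.91 ± 0.08 (adjusted p = 3.3e-05 by limma). Nontumor arrays agreed closely for both genes, and tumor arrays scattered for Bdh1.

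Of the uptake and regulation members 4 of 6 fell, with a median of -1.54. Fabp1 was 10.75, 9.84, 12.64 and 7.20 in tumors and 14.09, 13.92, 13.81 and 13.71 in nontumor liver. Tumor arrays spread over more than 5 log2 units while nontumor arrays lay within 0.5 of each other, and the groups did not overlap. The difference was -3.77 ± 0.94, or 13.7-fold lower in tumors (adjusted p = 0.00718 by limma), and it was -2.80 without tumor array 4 and -4.62 without tumor array 3. Cd36, a membrane transporter of fatty acids, was 8.33, 7.81, 9.39 and 7.13 in tumors and 11.27, 11.50, 10.86 and 10.62 in nontumor liver, a difference of -2.90 ± 0.43 (adjusted p = 4.7e-04 by limma). Cd36 tumor arrays took the order seen for Fabp1, Acox2 and Ehhadh.

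Ppara was 6.26, 6.21, 6.65 and 6.10 in tumors and 7.52, 7.34, 7.05 and 7.15 in nontumor liver. The groups did not overlap, and the difference was -0.96 ± 0.14, or 1.94-fold lower in tumors (adjusted p = 4.8e-04 by limma). Pdk4, the kinase that shuts off pyruvate dehydrogenase when fatty acids are burned, was 7.75, 7.77, 8.38 and 7.48 in tumors and 11.00, 11.47, 9.28 and 8.12 in nontumor liver. Nontumor arrays 1 and 2 were the high ones, and nontumor array 4 lay below tumor array 3. The difference of -2.12 ± 0.66 was called (adjusted p = 0.02 by limma), but not without nontumor array 1 (-1.78, adjusted p = 0.0535 by limma), and it was -2.74 without nontumor array 4. Pdk4 is the only called member whose groups overlapped.

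Fgf21, a fasting hormone of the liver, was 6.49, 6.18, 7.47 and 6.31 in tumors and 7.37, 6.93, 7.09 and 8.21 in nontumor liver. Tumor array 3 lay among the nontumor arrays, and the difference of -0.79 ± 0.34 was not called (adjusted p = 0.0697 by limma). Without tumor array 3 it was -1.07 and called (adjusted p = 0.0116 by limma), as it was without nontumor array 2 (-0.95, adjusted p = 0.0498) and with array medians subtracted (-0.89). Acot1, a cytosolic acyl-CoA thioesterase, was 5.0, 4.76, 4.75 and 4.69 in tumors and 5.10, 4.87, 4.91 and 4.96 in nontumor liver. All of these lay below the highest bacterial probe set of their array, so no change of Acot1 can be read from them (-0.16 ± 0.09, adjusted p = 0.144 by limma, and 0.0496 without tumor array 1).

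The members divided by how far the tumor arrays lay from each other. Tumor SDs were 2.26 for Fabp1, 2.17 for Acox2, 1.32 for Acsl1, 1.21 for Ehhadh, 0.95 for Cd36 and 0.74 for Bdh1, against a median of 0.20 over the members and 0.12 over all genes. Cpt2, Etfdh, Eci2 and Crot had differences of -2.11 to -1.81 with tumor SDs of 0.09 to 0.18. Over the 36 members the difference and the tumor SD had a Spearman rho of -0.60, which describes genes measured on the same arrays.

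**Figure D2:**
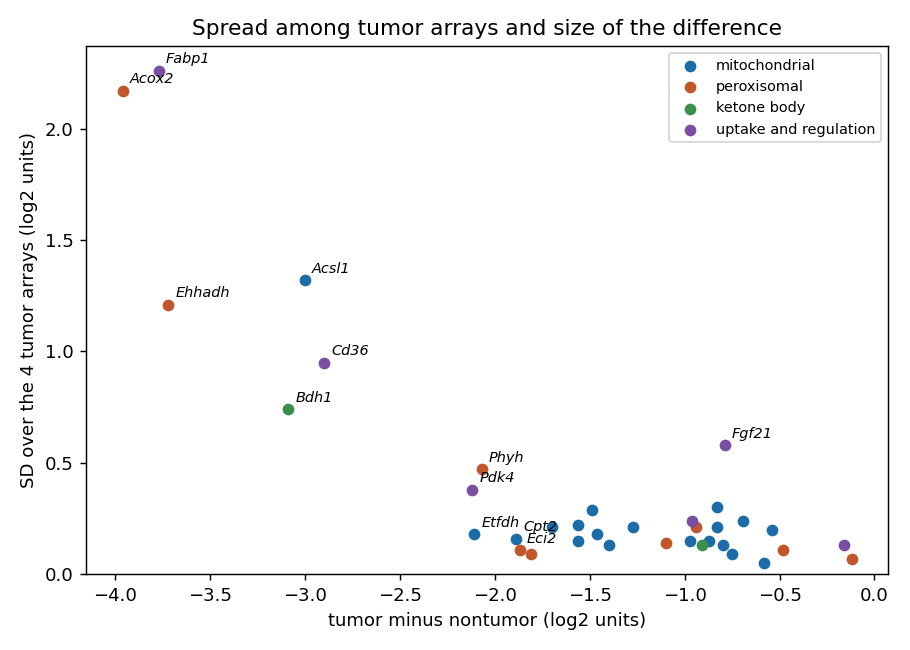
Difference between tumor and nontumor liver (log2 units) on the horizontal axis and the SD over the 4 tumor arrays (log2 units) on the vertical axis, for each measured member, coloured by role. Fabp1, Acox2, Acsl1, Ehhadh, Cd36 and Bdh1 combine large falls with SDs of 0.74 or more, while Etfdh, Cpt2, Eci2 and Crot lie near the bottom of the plot.

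The order of the tumor arrays from high to low was 3, 1, 2, 4 for 10 of 36 members (27.8%), among them all 6 with the widest spread, together with Hadha, Etfa, Phyh and Ppara. This order was chosen after the values were seen. It held for 6.97% of all genes. Among genes called lower in tumors it held for 18.1%, and among the 32 members called lower for 31.2%. Median differences from the nontumor mean on tumor arrays 1 to 4 were -1.11, -1.46, -1.15 and -1.43 for mitochondrial members and -1.73, -1.94, -1.55 and -1.75 for peroxisomal members. Those for the 5 hepatocyte markers were -0.78, -2.03, -0.20 and -4.35. All 5 hepatocyte markers also stood in the order 3, 1, 2, 4. The group medians of the mitochondrial and peroxisomal members were low on all 4 tumor arrays. How the members' falls relate to hepatocyte content was not tested.

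Markers of several cell types moved with the comparison. Of the 5 hepatocyte markers, 2 fell and 3 were not called, and their summed signal, given as log2, was 13.96 to 16.31 in tumors and 16.45 to 16.49 in nontumor liver. Albumin, Alb, was 14.32, 14.04, 14.59 and 12.78 in tumors and 14.53 to 14.57 in nontumor liver, so the defining marker was present on every array. All 4 measured bile duct markers (of 5) rose, with summed signals of 14.55 to 14.68 in tumors and 10.28 to 12.00 in nontumor liver. Of the 4 measured macrophage markers (of 5), 2 fell, 1 rose and 1 was not called, with summed signals of 12.35 to 12.62 in tumors and 12.70 to 13.38 in nontumor liver. The falls were in Clec4f, a receptor of Kupffer cells (-3.85 ± 0.29), and Cd163 (-1.15 ± 0.13), and Csf1r rose by 0.68 ± 0.13. Of the 4 measured endothelial markers (of 5), 3 fell and 1 rose, with summed signals of 11.73 to 12.05 in tumors and 12.24 to 12.71 in nontumor liver. Stab2, a receptor of liver sinusoids, fell most (-3.12 ± 0.21). Fat markers were lower in 3 of 5 and higher in 1, with summed signals of 9.17 to 9.95 in tumors and 10.67 to 10.95 in nontumor liver. The largest fall was in Cidec, at 6.88 to 8.39 in tumors and 10.16 to 10.47 in nontumor liver, which made up much of the nontumor sum. The fat marker that rose was Adipoq (0.80 ± 0.16). Muscle markers were lower in 2 of 5 and higher in 1, with summed signals of 9.73 to 10.13 in tumors and 8.61 to 8.89 in nontumor liver. Of those called lower, Myh7 lay below the highest bacterial probe set on every tumor and nontumor array, so no fall can be read from it. The rise was in Tnnt2, at 9.07 to 9.68 in tumors and 4.64 to 5.12, below the highest bacterial probe sets, in nontumor liver. What part any of these markers has in the members' falls was not tested.

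**Figure D3:**
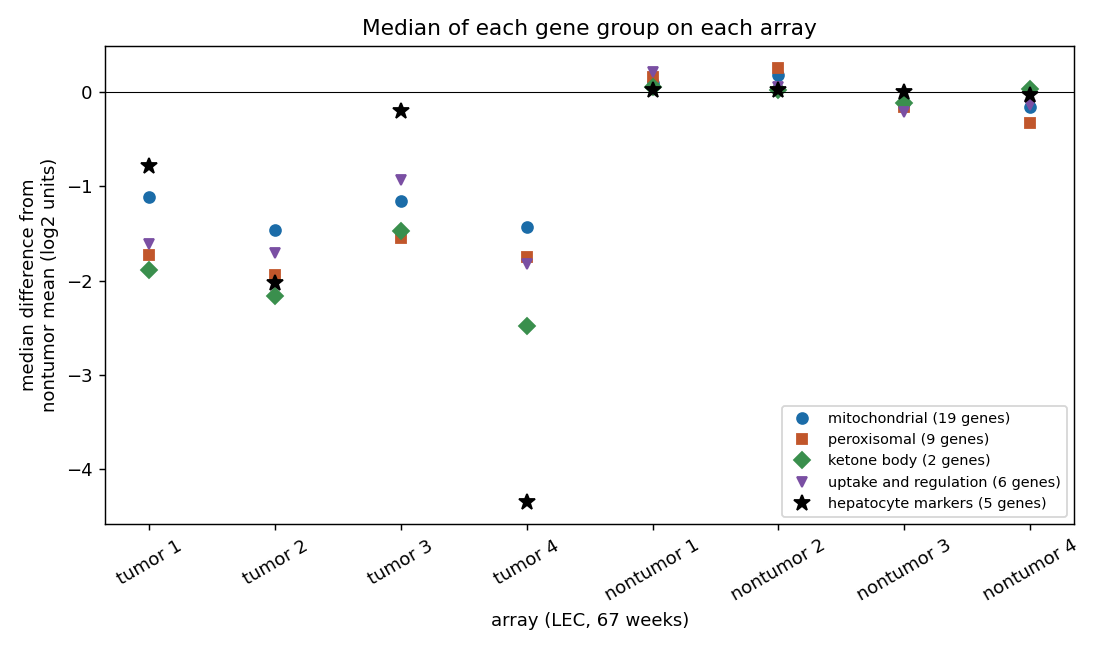
Median difference from the mean of the 4 nontumor arrays (log2 units) for each role group and for the hepatocyte markers, on each tumor and nontumor array. Mitochondrial and peroxisomal medians lie between -1.94 and -1.11 on all 4 tumor arrays. The hepatocyte marker median runs from -0.20 on tumor array 3 to -4.35 on tumor array 4.

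A wider list of 81 further genes of the same pathways had 71 measured genes, of which 59 fell and 3 rose in tumors, with a median of -1.33. Of all genes, 29.2% were called lower and 38.8% higher, with a median of 0.07. The largest falls were in Cyp4a1, a fatty acid ω-hydroxylase (-3.88 ± 0.79, adjusted p = 0.0026 by limma), Slc27a5, a fatty acid and bile acid CoA ligase (-3.84 ± 0.72, adjusted p = 0.00168 by limma), and Cyp4a8, another member of the Cyp4a family (-3.74 ± 0.28, adjusted p = 1.3e-05 by limma). Oxct1, the transferase with which tissues other than liver use ketone bodies, was 9.30, 9.63, 9.56 and 9.38 in tumors and 7.10, 7.34, 7.07 and 7.02 in nontumor liver. Its rise of 2.34 ± 0.10 (adjusted p = 1.2e-06 by limma) stood beside the fall of Bdh1, with no overlap and little spread. Ucp2, a carrier of the inner mitochondrial membrane, averaged 12.26 ± 0.18 in tumors and 10.26 ± 0.15 in nontumor liver, a rise of 2.00 ± 0.11 (adjusted p = 3.1e-06 by limma). Slc27a4, a fatty acid transport protein, rose by 0.76 ± 0.08 (adjusted p = 6.4e-05 by limma).

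Outside the tumors no member was called different from the control strain. In LEC nontumor liver against LEA liver at 67 weeks, 0 of 36 members were called lower and 0 higher by limma, where 0.563% of all genes were called, 0.331% lower and 0.232% higher. At an unadjusted p under 0.05, 4 members were lower (Abcd3, Hadh, Hadhb and Scp2), or 11.1%, and 0 were higher, against 7.24% of all genes lower and 5.12% higher. LEA was 1 array and was assumed to vary like the replicated groups, so its own spread is not in the test. The median difference was -0.29 over the members and -0.03 over all genes, with 29 members below 0 and 7 above. The LEA array lay above all 4 nontumor arrays for 21 of 36 members, against 28.8% of all genes, and below all 4 for 4 members, against 20% of all genes.

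The largest differences were in uptake and regulation members. Pdk4 was 11.00, 11.47, 9.28 and 8.12 in LEC nontumor liver and 11.86 in LEA, a difference of -1.89 ± 1.04 (adjusted p = 0.517 by limma). Fgf21 was 7.37, 6.93, 7.09 and 8.21 in LEC nontumor liver and 8.56 in LEA, a difference of -1.16 ± 0.54 (adjusted p = 0.438 by limma). Cd36 was 11.27, 11.50, 10.86 and 10.62 in LEC nontumor liver and 12.16 in LEA, a difference of -1.10 ± 0.68 (adjusted p = 0.565 by limma). For these 3 genes the LEA array was above every LEC nontumor array, by 0.35 to 0.66 log2 units over the highest of them. Ehhadh, at 11.24, 11.34, 10.16 and 9.71 in LEC nontumor liver and 11.64 in LEA, differed by -1.03 ± 0.95 (adjusted p = 0.709 by limma). Acadl, at 11.79, 12.21, 11.84 and 11.13 in LEC nontumor liver and 12.31 in LEA, differed by -0.57 ± 0.32 (adjusted p = 0.528 by limma).

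Few members stood higher in LEC nontumor liver. Phyh was 12.04, 11.91, 11.90 and 12.50 in LEC nontumor liver and 11.73 in LEA (0.36 ± 0.37, adjusted p = 0.739 by limma). Bdh1 was 11.04, 10.95, 10.78 and 10.89 in LEC nontumor liver and 10.64 in LEA (0.27 ± 0.49, adjusted p = 0.863 by limma). Both lone LEA values were just under the lowest LEC nontumor array. The second probe set of Bdh1 had the opposite sign (-0.23), and that of Phyh the same sign (0.11). Acat1 was 11.32, 11.35, 11.26 and 11.42 in LEC nontumor liver and 11.59 in LEA (-0.25 ± 0.13), and Ppara was 7.52, 7.34, 7.05 and 7.15 in LEC nontumor liver and 7.54 in LEA (-0.27 ± 0.22). Fabp1 differed by -0.22 ± 1.48, an error that takes in the wide tumor spread of this gene because all groups share 1 estimate. The errors and p-values of Ehhadh, Cd36 and other genes with wide tumor spread take it in likewise, against LEA and against 4 weeks. Acot1, at 4.66 in LEA, was again below the bacterial probe sets.

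In the wider list 0 of 71 genes were called lower and 1 higher in LEC nontumor liver against LEA. Dao, the peroxisomal D-amino acid oxidase, was called higher (adjusted p = 0.00771 by limma), at 11.11, 10.39, 10.67 and 11.15 in LEC nontumor liver and 4.80 in LEA. The LEA level lay below the highest bacterial probe set of that array (6.11), so the difference can be read only as at least 4.72 log2 units. The next largest positive differences were in Cyp4a8 (1.47 ± 0.45, adjusted p = 0.234 by limma) and Acad9, an acyl-CoA dehydrogenase (1.05 ± 0.18, adjusted p = 0.0546 by limma). The largest negative ones were in Angptl4, a secreted inhibitor of lipoprotein lipase (-1.77 ± 0.59), the peroxisomal aminotransferase Agxt (-1.32 ± 0.63) and the isovaleryl-CoA dehydrogenase Ivd (-0.91 ± 0.22), with adjusted p of 0.277, 0.445 and 0.141 by limma.

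LEC nontumor liver at 67 weeks was also set against LEC liver at 4 weeks, again a lone array, and 0 of 36 members were called lower and 0 higher by limma. Of all genes 0.464% were called, 0.232% lower and 0.232% higher. At an unadjusted p under 0.05, 3 members were lower (Acat1, Cpt1a and Ppara), or 8.33%, and 0 were higher, against 6.33% of all genes lower and 7.17% higher. The median difference was -0.24 over the members and -0.00 over all genes, and 33 members were below 0. The 4 week array lay above all 4 nontumor arrays for 18 members, against 24.3% of all genes, and below all 4 for 0 members, against 24.6% of all genes. The comparisons of nontumor liver with tumor, with LEA and with the 4 week array share the nontumor arrays.

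Ppara came closest to a call. It was 7.52, 7.34, 7.05 and 7.15 in LEC nontumor liver at 67 weeks and 8.57 at 4 weeks, over 1 log2 unit above the highest nontumor array, with a difference of -1.30 ± 0.22 (adjusted p = 0.0579 by limma). The call depended on single arrays and on the scaling: without nontumor array 1 the adjusted p was 0.0468, without tumor array 3 it was 0.0318, and after quantile normalization again it was 0.0407 by limma. Cpt1a, at 11.47, 10.44, 10.29 and 10.99 in nontumor liver at 67 weeks and 11.81 at 4 weeks, differed by -1.01 ± 0.39 (adjusted p = 0.31 by limma). Bdh1 was 11.04, 10.95, 10.78 and 10.89 in nontumor liver at 67 weeks and 11.88 at 4 weeks, a difference of -0.96 ± 0.49 (adjusted p = 0.454 by limma). For both genes the 4 week level was the highest.

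Phyh was 11.90 to 12.50 in nontumor liver at 67 weeks and 12.83 at 4 weeks, a difference of -0.75 ± 0.37 (adjusted p = 0.431 by limma). Acox2 was 12.11 to 12.87 in nontumor liver at 67 weeks and 13.14 at 4 weeks, a difference of -0.66 ± 1.44 (adjusted p = 0.9 by limma). Neither nontumor range reached the 4 week level. The error for Acox2 takes in its wide tumor spread (SD 2.17, against 0.36 in nontumor liver), because all groups share 1 estimate. Acat1 was 11.26 to 11.42 in nontumor liver at 67 weeks and 11.84 at 4 weeks, and differed by -0.50 ± 0.13 (adjusted p = 0.153 by limma). Pdk4 had the opposite sign, with 8.12 to 11.47 in nontumor liver at 67 weeks and 8.15 at 4 weeks, a difference of 1.81 ± 1.04 (adjusted p = 0.511 by limma). Nontumor array 4 was thus at the 4 week level of Pdk4, and nontumor arrays 1 and 2 were over 2 log2 units above it. Cd36 was 10.62 to 11.50 in nontumor liver at 67 weeks and 10.64 at 4 weeks, a difference of 0.42 ± 0.68.

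Of the wider list 1 of 71 genes was called lower against 4 weeks, Ppargc1a, the coactivator of PPARα and of mitochondrial biogenesis, at 8.38, 8.24, 8.37 and 8.32 in nontumor liver at 67 weeks and 9.33 at 4 weeks (-1.01 ± 0.16, adjusted p = 0.0428 by limma), and 0 were called higher. The largest negative differences were not called: Hao2, a peroxisomal hydroxyacid oxidase (-2.05 ± 0.78, adjusted p = 0.307 by limma), Slc27a5 (-1.13 ± 1.14, adjusted p = 0.737 by limma) and the peroxisomal lyase Hacl1 (-1.08 ± 0.26, adjusted p = 0.139 by limma). The largest positive ones were in Bdh2 (1.19 ± 0.23, adjusted p = 0.0779 by limma), Ucp2 (0.57 ± 0.18, adjusted p = 0.22 by limma) and the nuclear receptor Nr1h3 (0.50 ± 0.38, adjusted p = 0.633 by limma).

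**Figure D4:**
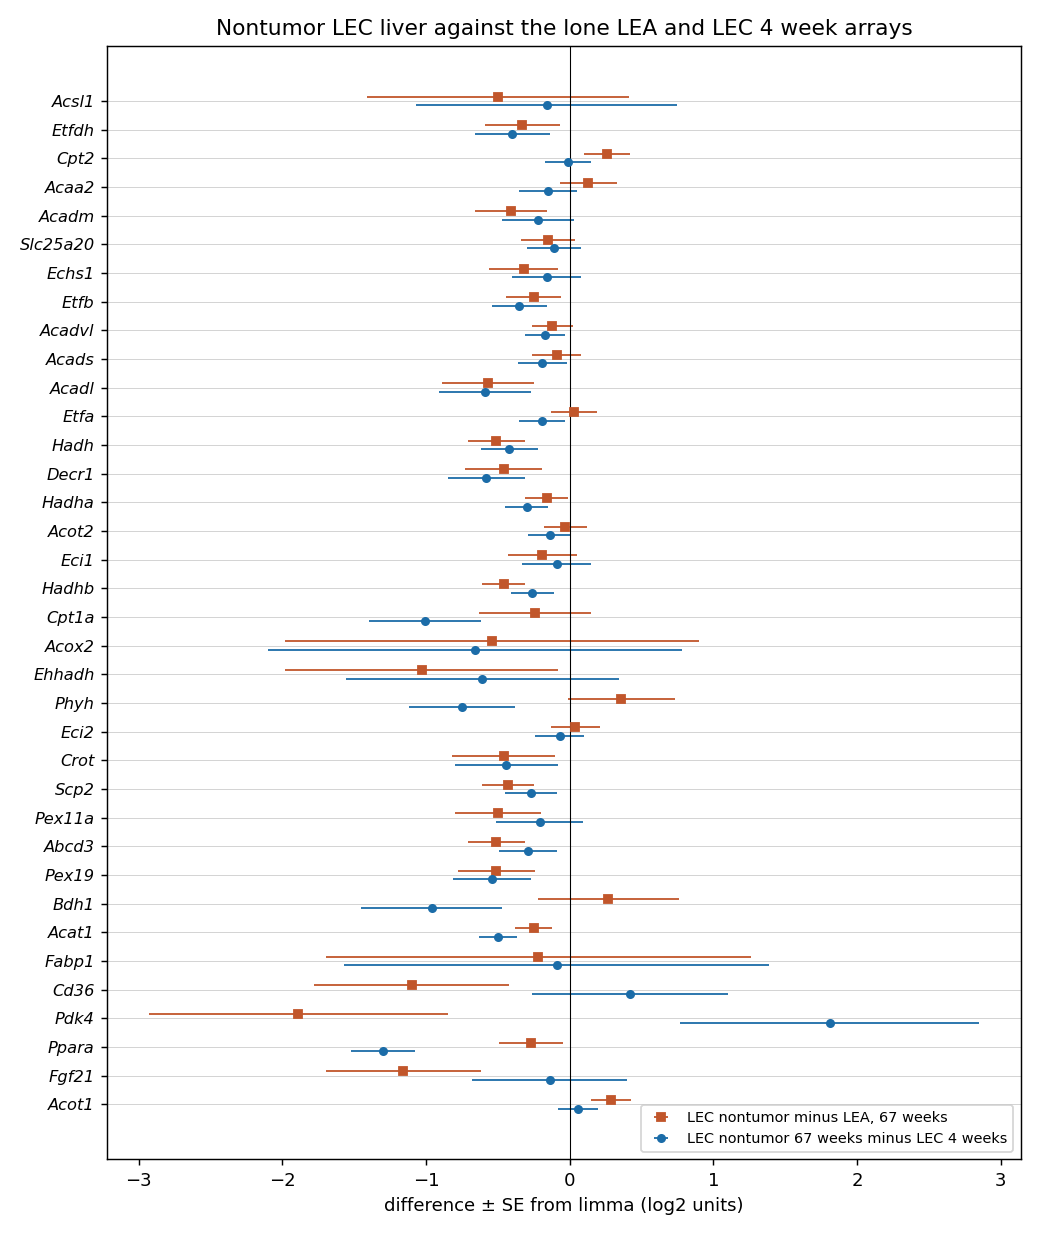
Difference ± SE from limma (log2 units) of each measured member, for LEC nontumor liver minus LEA at 67 weeks (squares) and LEC nontumor liver at 67 weeks minus LEC liver at 4 weeks (circles). Most values lie within 0.6 of 0 on the negative side, with Pdk4 at -1.89 and 1.81 and Ppara at -1.30 against the 4 week array.

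Among the lone arrays no test was made, and a difference of at least 1 log2 unit was taken as a description. From 4 to 26 to 39 weeks the set as a whole hardly moved: relative to 4 weeks its median was 0.01 higher at 26 weeks and 0.06 higher at 39 weeks, against 0.04 and 0.06 over all genes. At 26 weeks 1 member was at least 1 log2 unit higher than at 4 weeks (Pdk4, by 2.08; 2.57% of all genes) and 1 was lower (Cd36, -1.42; 0.563% of all genes). At 39 weeks 0 were higher than at 4 weeks (2.51% of all genes) and 2 were lower (Cd36, -1.62, and Crot, -1.53; 0.549% of all genes). Between 26 and 39 weeks 0 were higher (0.0774% of all genes) and 2 were lower (Pdk4, -1.44, and Crot, -1.22; 0.134% of all genes). The 26 and 39 week arrays are also those with the Eif2s3y signal and without Xist described above, so age and this difference cannot be told apart.

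Ppara was 8.57, 7.70 and 8.06 at 4, 26 and 39 weeks, and all 3 levels lay above the 4 nontumor arrays at 67 weeks. Bdh1 was 11.88, 11.53 and 11.38 and Acat1 11.84, 11.65 and 11.72, again above every nontumor array at 67 weeks. The levels of Cpt1a were 11.81, 11.41 and 11.34, which lay around the highest nontumor array. Pdk4 was 8.15, 10.23 and 8.79, within the nontumor range at all 3 ages. Cd36 was 10.64, 9.22 and 9.02, so that at 26 and 39 weeks it was below every nontumor and LEA array. Fgf21 was 7.54, 7.12 and 6.76, and Fabp1 was 13.97, 13.89 and 13.84, with little movement in Fabp1. Crot was 12.34, 12.03 and 10.82, and only its 39 week level lay below the nontumor range. Phyh was 12.83, 13.03 and 12.94, above all nontumor arrays at each age. Acox2 was 13.14, 12.74 and 12.76 and Ehhadh 11.22, 11.29 and 11.10, and Acsl1 was 13.09, 12.82 and 12.83, each within 0.4 log2 units across the 3 ages. Acadl was 12.33, 12.51 and 12.37, above the nontumor arrays at each age, and Acot1 was 4.90, 5.65 and 5.39, below the bacterial probe sets.

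Set against the LEA array, LEC liver at 4 weeks was at least 1 log2 unit higher for 3 members (Bdh1 by 1.24, Phyh by 1.11 and Ppara by 1.03; 0.943% of all genes) and at least 1 lower for 3 (Pdk4, -3.70, Cd36, -1.52, and Fgf21, -1.02; 1.36% of all genes). These arrays differ in strain and in age together, and in the Cyp2c11 and Cyp2c13 levels given above.

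**Figure D5:**
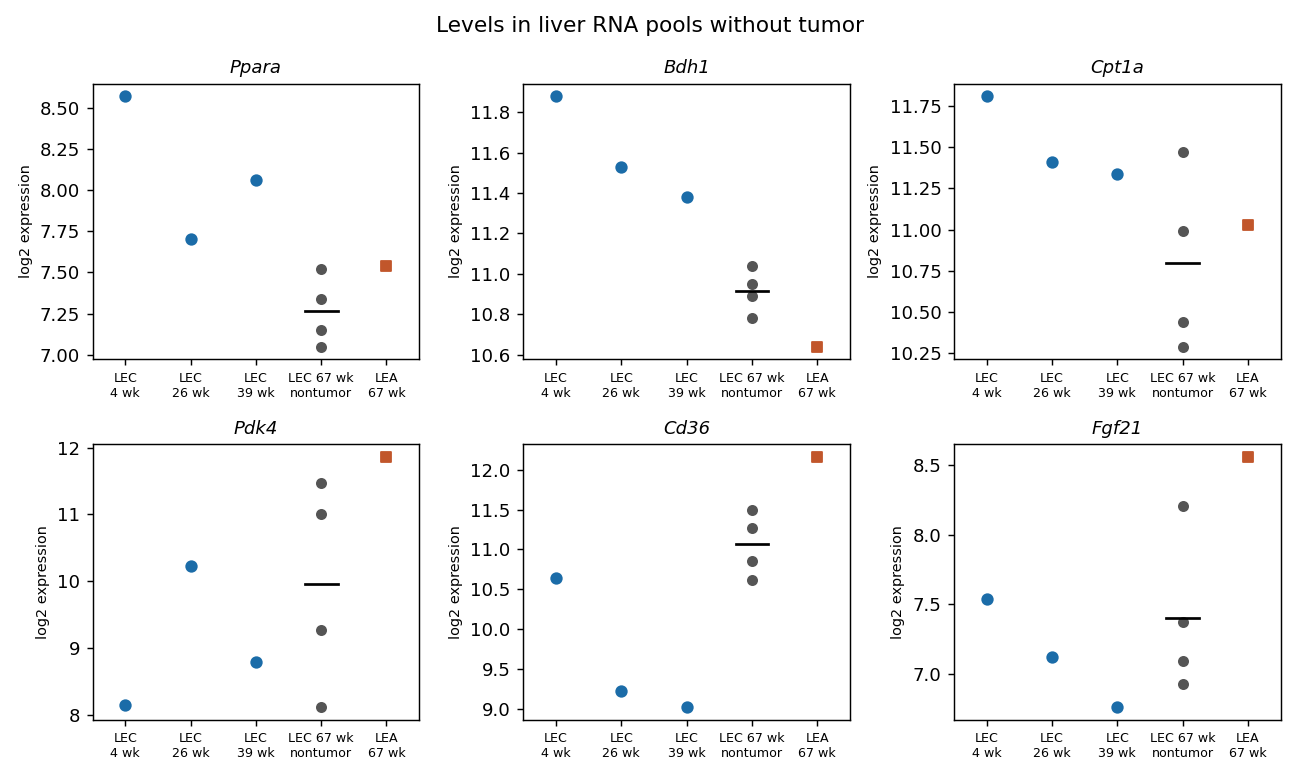
Log2 expression of Ppara, Bdh1, Cpt1a, Pdk4, Cd36 and Fgf21 in LEC liver at 4, 26 and 39 weeks (1 array each), LEC nontumor liver at 67 weeks (4 arrays, bar at the mean) and LEA liver at 67 weeks (1 array), with a separate scale for each gene. Ppara and Bdh1 were highest at 4 weeks, and Pdk4, Cd36 and Fgf21 were highest in LEA.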

How the data were processed

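Liver RNA (3 µg per labelling) was hybridized to Affymetrix rat arrays. The values are the log2 expression values the authors deposited, made with R 2.6.1 by RMA according to the submitters' processing notes, and were not normalized again. RMA subtracts background, makes arrays share a distribution and combines the probes of a probe set. Groups came from the sample titles. Of 31099 probe sets, 57 controls were left out, and 20826 of the 31042 tested were annotated to a single gene. Symbols were updated through Entrez identifiers (20758 matched), and the brightest probe set on average stood for its gene. Each gene is thus read from the probe set annotated to it, so 14 members with several probe sets rest on 1 of them. In the other 18 probe sets of those genes, the sign was the same for 18 in tumor minus nontumor, 11 in nontumor minus LEA and 16 in nontumor minus LEC at 4 weeks.

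Group means over 12 arrays were fitted with limma 3.58.1 in R 4.3.3 (6 residual and 2.84 prior degrees of freedom), two-sided, with Benjamini-Hochberg adjustment over 31042 probe sets at 0.05. The fit was also run on simulated data in which few probe sets changed and lone arrays varied like the replicated groups. That run could not test whether lone arrays vary so, nor a comparison in which most genes are called. The number of arrays limits the precision. Members and lists, and the genes named, were chosen with earlier results of these data known. Array values were given for the members with the 5 largest falls and 3 largest rises per comparison, both ketone body members, Ppara, Fgf21, Pdk4, Cd36 and Fabp1, and others were added after their values were seen. From the wider list the 3 largest changes in each direction per comparison were named, with Ppargc1a, the single called gene against 4 weeks. Alternatives were quantile normalization again, median subtraction, removal of dim probe sets, a trended robust prior, means over probe sets, leaving out each replicate, and a block for the number in the title. Tumor and nontumor arrays with the same title number had correlated deviations of 0.05, 0.14, -0.08 and 0.14, so the numbers were not taken to pair arrays. Python 3.11.15 with matplotlib 3.10.9 drew the figures.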

Additional observations from a re-analysis of the deposited data

Results flagged for a closer look

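Of 72 groups of 4 arrays looked at (tumor and nontumor arrays of each of the 36 measured members), 1 had an array that stood apart by Dixon's test at the 95% level, and chance alone marks about 1 group in 20. For Etfdh, the flavoprotein oxidoreductase, tumor array 3 was at 8.95 and the next, tumor array 2, at 8.60. The gap was 0.927 of the range of the 4 tumor arrays, above the critical value, and tumor array 3 was still well below the lowest nontumor array (10.43).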

How the results depend on the processing

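The count of members called lower in tumors was 32 of 36, 33 after quantile normalization again, 35 with array medians subtracted, 31 of 33 tested without dim probe sets, 32 with a trended robust prior, 33 with means over probe sets and 32 with the replicate block, and it ranged from 31 to 33 when each array was left out in turn. No member was called higher in any of these. Genes called lower in tumors numbered 4147 of all 14217 in the main result, 4825 after quantile normalization again and 5188 with array medians subtracted. They were 2341 of 9688 without dim probe sets, 4164 with a trended robust prior, 4268 with means over probe sets and 3898 with the block. With each array left out in turn they ranged from 3553 to 4080. The block changed no member's call. Both scalings moved the median of all genes from 0.07 to -0.04, and the members' median was -1.57 and -1.43. Calls gained were those of Cpt1a (-0.77 with quantiles, -0.65 with medians, -0.81 with means over probe sets, -0.71 without nontumor array 3), Fgf21 (-0.89 with medians, -0.95 without nontumor array 2, -1.07 without tumor array 3) and Acot1 (-0.26 with medians, -0.23 without tumor array 1). Pdk4 lost its call without nontumor array 1 (-1.78).

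Against LEA no member was called under any alternative. Against the 4 week array, 0 members were called lower in the main result, 1 after quantile normalization again and 0 to 1 when an array was left out, and the member was Ppara each time (-1.37 with quantiles, -1.38 without nontumor array 1, -1.30 without tumor array 3). Small uncalled differences changed sign. Between tumor and nontumor liver this was Pex19 (-0.24 to 0.06 when each array was left out). Against LEA these were Acads (0.02) and Acot2 (0.04) with quantiles, Acaa2 (-0.09) and Hadha (0.02) with means over probe sets, and with arrays left out Acot2 (-0.07 to 0.05), Eci2 (-0.03 to 0.13) and Etfa (-0.02 to 0.07). Against 4 weeks these were Cpt2 (0.00 with quantiles) and, with arrays left out, Cpt2 (-0.05 to 0.03), Eci2 (-0.15 to 0.01) and Fgf21 (-0.41 to 0.02). The cause of these shifts was not tested. Comparisons with a lone array limit what can be called, since its own spread is not measured. Levels near or below those of the bacterial probe sets limit how large a difference can be read. Among them are Acot1 on all arrays, Acox2 and Ehhadh on tumor array 4, and Dao in LEA. Ppara in tumors (6.10 to 6.65) and Fgf21 on tumor arrays 1, 2 and 4 (6.18 to 6.49) also stood little above the bacterial probe sets.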
